A study of Homo sapiens with 18 samples.

Results

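The small RNAs carried by extracellular vesicles (EVs) of ATG12-/- cells were compared with the small RNAs of the ATG12-/- cells that released them. The cells were HEK293T, a human embryonic kidney line, and the ATG12-/- line was 1 clone, named D9 in the labels. All cultures, controls included, had been without serum for 24 h when EVs and cells were collected. The comparison used 6 of the 18 libraries of the series, 3 from ATG12-/- EVs and 3 from ATG12-/- cells, over every feature of the deposited table. The same EV-to-cell change was then set against that of ATG7-/- cultures (1 clone, named F2, 3 EV and 3 cell libraries) and of wild-type cultures (3 EV and 3 cell libraries). The labels call the 3 libraries of a group biological replicates, and the p-values measure the spread between them. With 1 clone per knockout, the loss of a gene and other traits of its clone cannot be told apart. The method of EV isolation is not given in the sources used here, and the table holds neither ATG12 mRNA nor vesicle proteins, so neither the knockout nor the purity of the EVs can be checked in it.

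ATG12 is a ubiquitin-like protein. It is joined to ATG5 by ATG7 and ATG10, and the ATG12-ATG5 conjugate, held on membranes by ATG16L1, promotes the joining of LC3-family proteins to lipid, which autophagosomes need to grow. The same machinery has been linked to the loading of RNA-binding proteins into EVs, which are membrane-bound particles that cells shed and that carry proteins and RNA. Most of the RNAs measured here work in fixed places in the cell: small nucleolar RNAs (snoRNAs) work in the nucleolus, where they direct how ribosomal RNA is modified and cut, small Cajal body RNAs (scaRNAs) guide the modification of spliceosomal RNAs, and tRNAs and most mature microRNAs act in the cytoplasm.

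The table holds 2462 features, of which 905 reached 10 normalised reads in at least 3 of the 18 libraries and were tested. A normalised read is a read divided by the size factor of its library, as deposited, and it is not divided by the length of the RNA. The ATG12-/- EV libraries held 2117364 to 2764546 reads assigned to features and the ATG12-/- cell libraries 1229796 to 1804089. Since a few RNAs dominated the EVs, the deposited scaling and the library totals differ: normalised reads summed to 3511190 to 3992490 per library in ATG12-/- EVs and to 859973 to 875538 in ATG12-/- cells. With values scaled to library totals, the median log2 change between ATG12-/- EVs and ATG12-/- cells was lower by 2.07 than with the deposited scaling. The call "higher" or "lower" below is that of the deposited scaling, and a named RNA called higher whose direction turned with library totals is given with its value there. Among abundant RNAs, the distance between RNAs of the same libraries does not depend on the scaling.

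A handful of RNAs made up most of the reads of ATG12-/- EVs, whereas the reads of ATG12-/- cells were spread over many snoRNAs and tRNAs. With copies of 1 RNA counted once, 4 RNAs held 50% of the reads in each of the 3 ATG12-/- EV libraries, against 37, 38 and 37 RNAs in the ATG12-/- cell libraries. The 10 leading RNAs held 75.5%, 76.6% and 78% of the reads in ATG12-/- EVs, against 22.2%, 22.9% and 22.5% in ATG12-/- cells. U1, the annotated microRNA miR-6724-5p and glutamate tRNA-Glu-CTC led in the 3 EV libraries, and the C/D box snoRNAs U76, U31 and U43 led in the 3 cell libraries.

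**Figure D1:**
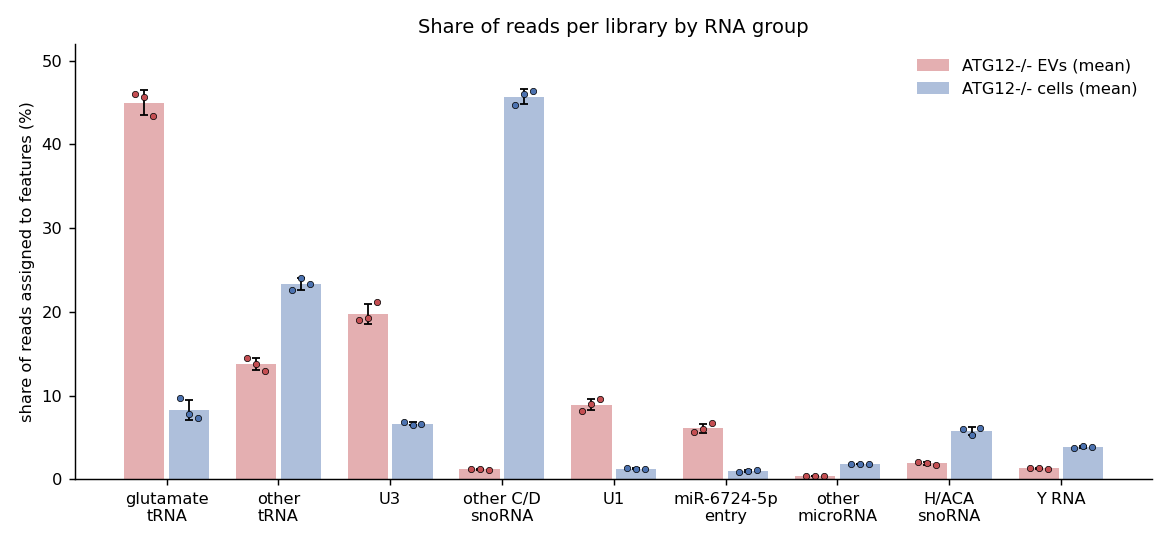
Share of the reads assigned to features, in percent, for 9 RNA groups in ATG12-/- EVs and in ATG12-/- cells. Bars are means, whiskers are SD and points are the 3 libraries of each group. Glutamate tRNA, U3, U1 and the miR-6724-5p entry took larger shares in the EVs, and C/D box snoRNAs other than U3 took 1.20% in the EVs and 45.7% in the cells.

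By class, tRNA took 60.5%, 59.5% and 56.4% of the reads in ATG12-/- EVs, against 32.3%, 31.9% and 30.7% in ATG12-/- cells. C/D box snoRNAs took 20.2%, 20.4% and 22.3% in ATG12-/- EVs, against 51.5%, 52.5% and 53.0% in ATG12-/- cells. For both classes the EV and cell libraries were far apart. In the EVs, most of the tRNA share was glutamate tRNA and most of the C/D box share was U3. Glutamate tRNA alone took 45.01% ± 1.43 in ATG12-/- EVs and 8.30% ± 1.23 in ATG12-/- cells (SD, n = 3 each), while all other tRNA took 13.8% ± 0.752 in ATG12-/- EVs and 23.4% ± 0.740 in ATG12-/- cells. U3, a snoRNA with 5 copies in the table that hold nearly the same reads, took 19.8% ± 1.17 over its copies in ATG12-/- EVs and 6.64% ± 0.174 in ATG12-/- cells. The other C/D box snoRNAs together took 1.20% ± 0.0317 in ATG12-/- EVs and 45.7% ± 0.912 in ATG12-/- cells, a ratio of 0.0263. U1 took 8.94% ± 0.702 in ATG12-/- EVs and 1.27% ± 0.0629 in ATG12-/- cells. H/ACA box snoRNAs took 1.92% ± 0.193 in ATG12-/- EVs and 5.82% ± 0.462 in ATG12-/- cells. Y RNAs took 1.31% ± 0.0383 in ATG12-/- EVs and 3.88% ± 0.125 in ATG12-/- cells. Each of these differences gave p = 0.1 in a two-sided exact permutation test, the smallest p that 3 against 3 libraries allow. The shares above count every copy of an RNA. With copies of 1 RNA counted once, tRNA other than glutamate tRNA took 13.1% in ATG12-/- EVs and 15.6% in ATG12-/- cells. In the same order glutamate tRNA then took 32.8% and 3.78%, U3 8.59% and 1.79%, and U1 19.1% and 1.64%. Shares say nothing of absolute amounts: fewer vesicles that carry an RNA and less of it per vesicle cannot be told apart.

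Feature by feature, the test called 727 of the 905 tested (80.3%), 355 higher (39.2%) and 372 lower (41.1%) in ATG12-/- EVs than in ATG12-/- cells. With library totals the calls were 117 higher and 699 lower. Median log2 changes were taken for the classes with over 20 features tested. They were 0.81 for tRNA, -0.26 for microRNAs, -0.36 for scaRNAs, -1.85 for H/ACA box snoRNAs and -4.12 for C/D box snoRNAs. With library totals they were -1.25, -2.26, -2.39, -3.92 and -6.15 in the same order. The order was the same under each of the 4 scalings tried. A scaling moves all log2 changes by nearly the same amount, so the order could hardly have changed. The median over all features tested was -0.10 with the deposited scaling and -2.17 with library totals.

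**Figure D2:**
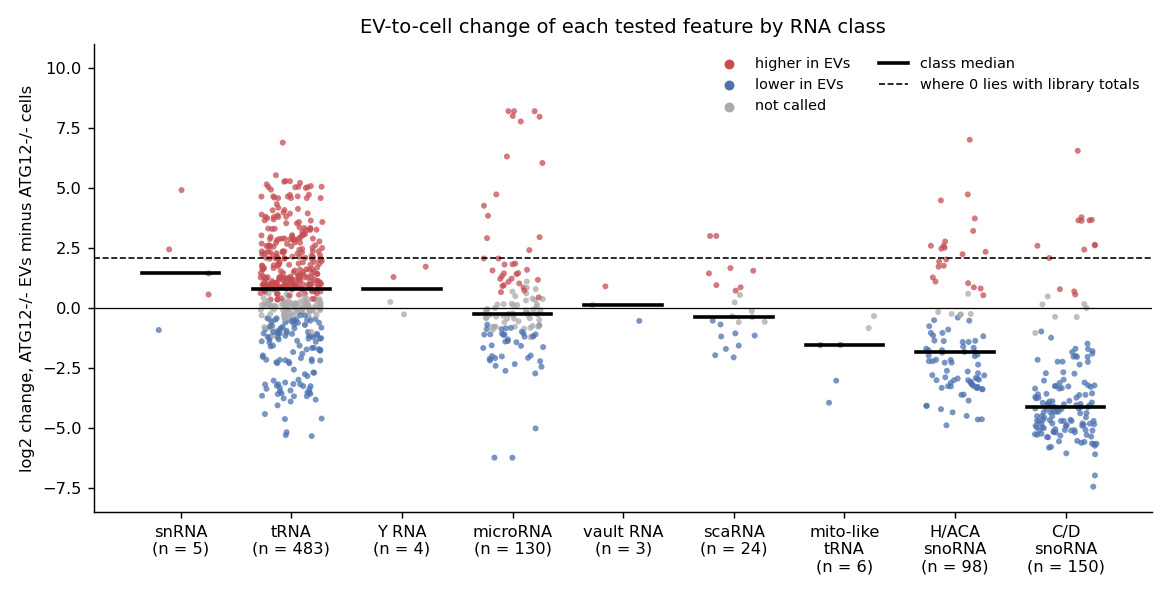
Each point is 1 tested feature, placed by its RNA class and its log2 change, ATG12-/- EVs minus ATG12-/- cells, on log2(normalised reads + 1). Red points were called higher and blue points lower in the EVs, grey points were not called, thick lines are class medians, and the dashed line, 2.07 above 0, marks where no change would lie with library totals. The median over C/D box snoRNAs was -4.12, with U22 at 6.55 and the U3 copies at 3.63 to 3.78 above the rest.

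C/D box snoRNAs are short RNAs that are cut from introns of a host gene and guide methylation of ribosomal RNA through the protein fibrillarin. They were the class lowest in ATG12-/- EVs: 129 of the 150 tested were called lower and 14 higher, against 41.1% and 39.2% of all features. The SNHG1 gene on chromosome 11, a noncoding host, carries 8 of them and shows how far neighbours from 1 precursor diverged. Their sequences are printed because U22 was higher and most of its neighbours lower in the EVs. The RNAs below are from GENCODE 29 on GRCh38, all on the minus strand, 5′ to 3′ with T for U, and capitals mark TGATGA, the usual form of the C box, and CTGA, the D box, wherever these letters occur on the RNA strand. They lie at chr11:62852910-62853035 (U22, SNORD22), chr11:62855292-62855366 (U26, SNORD26), chr11:62855012-62855083 (U27, SNORD27), chr11:62854621-62854695 (U28, SNORD28) and chr11:62853663-62853732 (U30, SNORD30).
U22: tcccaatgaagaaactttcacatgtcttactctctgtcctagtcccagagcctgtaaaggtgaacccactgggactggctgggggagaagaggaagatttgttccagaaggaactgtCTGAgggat
U26: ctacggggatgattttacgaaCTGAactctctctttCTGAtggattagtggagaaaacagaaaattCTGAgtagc
U27: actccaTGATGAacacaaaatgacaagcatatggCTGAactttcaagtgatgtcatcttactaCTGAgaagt
U28: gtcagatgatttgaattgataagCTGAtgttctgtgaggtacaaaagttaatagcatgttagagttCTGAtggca
U30: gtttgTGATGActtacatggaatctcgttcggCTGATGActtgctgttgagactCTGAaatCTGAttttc

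Of the C/D box snoRNAs annotated in GENCODE 29, 66.7% of 288 hold TGATGA in their first 20 bases and 91.3% hold CTGA in their last 15, against 0.671% and 3.36% of 149 H/ACA box snoRNAs. U22, at 126 bases, is the longest of the 5 printed. Whether TGATGA stands in the first 20 bases went with little difference in the EV-to-cell change: the median log2 change was -4.19 over the 74 tested that hold it and -3.82 over the 52 that do not.

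U22, which acts in forming 18S ribosomal RNA (shown in Xenopus), had 8257, 9218 and 11359 normalised reads in ATG12-/- EVs, against 152, 94.9 and 70.6 in ATG12-/- cells. All 3 EV libraries were far above all 3 cell libraries, a log2 change of 6.55 (SE 0.24, adjusted p = 1.47e-16), and the log2 change with library totals was 4.46. Its SNHG1 neighbour U28 had 6.89, 15.9 and 7.54 normalised reads in ATG12-/- EVs, against 539, 860 and 731 in ATG12-/- cells, a log2 change of -6.06 (SE 0.31, adjusted p = 3.60e-14). With library totals the log2 change of U28 was -8.02. The distance between U22 and U28 hardly depends on the scaling. U25, U27, U29, U30 and U31 of the same gene were called lower as well, with log2 changes of -4.05, -5.26, -2.36, -5.32 and -4.98. U31 had 626, 583 and 679 normalised reads in ATG12-/- EVs, against 19070, 20726 and 19980 in ATG12-/- cells. U26 had 6847, 6475 and 6903 normalised reads in ATG12-/- EVs, against 3767, 5097 and 4988 in ATG12-/- cells, and its log2 change of 0.56 (SE 0.18, adjusted p = 0.0086) became -1.54 with library totals.

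**Figure D3:**
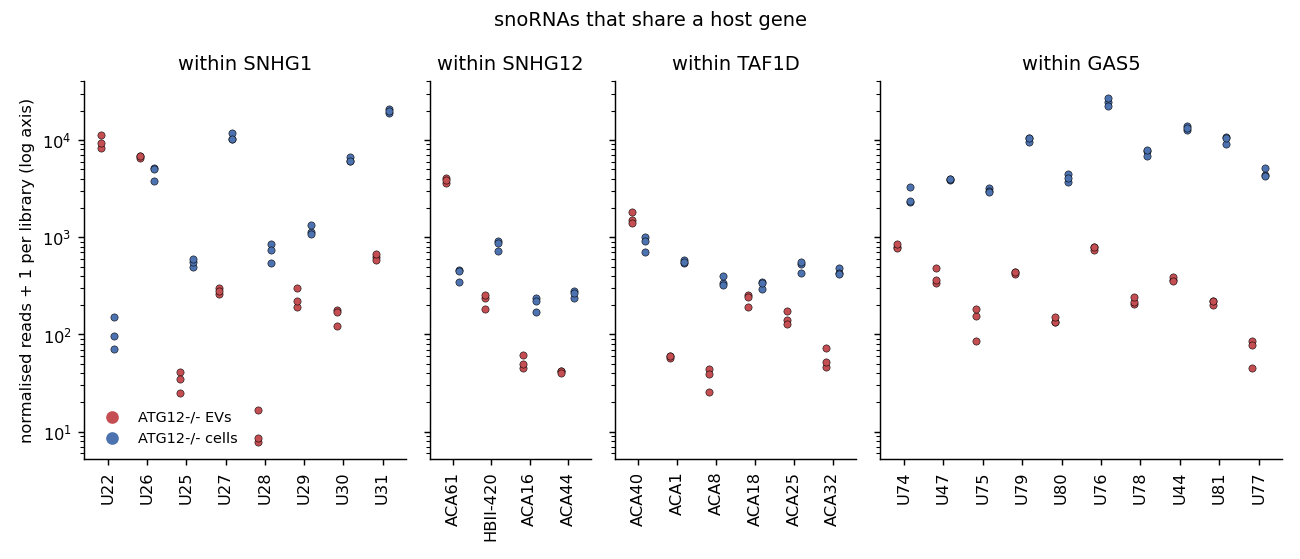
Normalised reads + 1 in each ATG12-/- EV library (red, left) and each ATG12-/- cell library (blue, right) for snoRNAs within 4 host genes, on a log axis. U22 in SNHG1 and ACA61 in SNHG12 were higher in the EVs while neighbours in the same gene were lower, and each of the 10 snoRNAs in GAS5 was lower.

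In most other host genes described here the C/D box snoRNAs were called lower, as was most of their class. Of the 150 C/D box snoRNAs tested, 129 were called lower, with a median log2 change of -4.12. Whether snoRNAs of 1 host gene moved together beyond this was not tested. GAS5, a noncoding host whose exon RNA is short-lived, carries 10 C/D box snoRNAs, and all 10 were called lower, with log2 changes from -6.10 (U77) to -1.70 (U74) and a median of -4.91. U76, which had the most reads of any feature in the cells, had 800, 743 and 801 normalised reads in ATG12-/- EVs, against 24786, 22261 and 26853 in ATG12-/- cells. U44 had 363, 389 and 355 in ATG12-/- EVs, against 12701, 14040 and 13340 in ATG12-/- cells. The 4 snoRNAs of RPL13A were all called lower (median log2 change -4.36), as were the 3 of ZFAS1 (-5.58). Over all genes for ribosomal proteins, 39 of the 40 C/D box snoRNAs tested were called lower, with none called higher. This compares with 41.1% of all features and with 129 of the 150 C/D box snoRNAs. The median log2 change of these 40 was -4.13, near the -4.12 of the class. SNHG5 stood apart: its U50 had 3386, 3139 and 3371 normalised reads in ATG12-/- EVs, against 5079, 3506 and 4306 in ATG12-/- cells, and neither U50 (log2 change -0.37, SE 0.20, adjusted p = 0.096) nor U50B (0.15) passed the test. U50 was called lower without ATG12-/- cell library 2 (-0.50), and both were lower with library totals (-2.47 and -1.95).

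HBII-240 (SNORD72, within RPL37 at chr5:40832656-40832735) was among the RNAs most depleted from the EVs and is printed with the same capitals.
HBII-240: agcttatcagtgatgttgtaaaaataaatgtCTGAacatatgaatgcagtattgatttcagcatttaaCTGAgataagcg

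HBII-240 had 11.03, 7.96 and 5.66 normalised reads in ATG12-/- EVs, against 1105, 1220 and 1071 in ATG12-/- cells (log2 change -6.98, SE 0.23, adjusted p = 1.65e-17). SNORD121B, within UBAP2, had 0, 0 and 3.77 in ATG12-/- EVs, against 287, 290 and 302 in ATG12-/- cells, the lowest log2 change of all features tested (-7.45, SE 0.48). The 3.77 normalised reads are 2 reads in 1 library. The other C/D box snoRNAs with the largest falls were U77, U28, Z17B, mgh28S-2409, SNORD127, HBII-99, U59B, HBII-108B and U82, with log2 changes from -6.10 to -5.62. U82 had 30.3, 33.2 and 66.0 normalised reads in ATG12-/- EVs, against 2661, 1662 and 1917 in ATG12-/- cells, so even the least changed of them was far outside the spread of its libraries.

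The 14 C/D box features called higher were U22, the 5 U3 copies, a second U13 entry (listed as U13_), HBII-115, HBII-142, HBII-166, HBII-289, U26, U94 and U97. HBII-142, U26, U94 and U97 had negative values with library totals (-0.02, -1.54, -1.23 and -1.40), and the other 10 stayed positive. Those called higher tended to be long. Over RNAs counted once, the 9 called higher had a median length of 114 bases (75 to 217) and the 123 called lower 77 bases (60 to 237). A split at 100 bases was chosen after the values were seen and has no test: of the 23 tested C/D box features of at least 100 bases, 10 were called higher and 12 lower, and of the 121 shorter ones 2 were called higher and 113 lower. These counts include copies. With RNAs counted once, 7 of the 20 long ones were called higher and 12 lower, and of the 119 shorter ones 2 higher and 111 lower. Across 139 of these RNAs Spearman's rho between length and log2 change was 0.23, and between the level in ATG12-/- cells and log2 change -0.42, where the second pair shares the cell values. Reads were at most 50 bases, so an RNA and its fragments cannot be told apart in these counts.

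U3 starts the cleavage of the ribosomal RNA precursor in its external spacer. The U3 sequence (SNORD3A, GENCODE 29, chr17:19188016-19188232, plus strand) is shown with the same capitals because it was the most abundant snoRNA of the EVs.
U3: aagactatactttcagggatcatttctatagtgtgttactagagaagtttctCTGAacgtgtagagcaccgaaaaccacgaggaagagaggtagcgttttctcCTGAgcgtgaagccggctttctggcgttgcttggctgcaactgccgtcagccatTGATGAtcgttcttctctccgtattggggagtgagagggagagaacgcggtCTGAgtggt

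The U3 entry had 135776, 143021 and 170920 normalised reads in ATG12-/- EVs, against 12538, 11617 and 11921 in ATG12-/- cells (log2 change 3.63, SE 0.18, adjusted p = 2.75e-14, and 1.53 with library totals). The other snoRNAs known from cleavage or folding of the precursor were divided. U17, an H/ACA box RNA needed for 18S formation, had 3182, 2847 and 2972 in ATG12-/- EVs, against 544, 506 and 530 in ATG12-/- cells (log2 change 2.51, and 0.41 with library totals). U14, which pairs with 18S sequence, was lower at 812, 703 and 777 in ATG12-/- EVs, against 7993, 7295 and 8234 in ATG12-/- cells (log2 change -3.36, SE 0.17). U8, which acts in forming 28S and 5.8S RNA, was lower at 1248, 1256 and 1361 in ATG12-/- EVs, against 4638, 4551 and 4318 in ATG12-/- cells (log2 change -1.80, SE 0.17). U13 had a log2 change of -4.13, E2 of -4.50 and E3 of -1.95, each called lower. Counted once per RNA, 3 of these 8 RNAs (U3, U17 and U22) were called higher and 5 lower. The second U13 entry (U13_) is left out of this count and went the other way from U13, as it was called higher.

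H/ACA box snoRNAs guide pseudouridylation with the protein dyskerin and end in ACA. Of the 98 tested, 70 were called lower (71.4%) and 22 higher (22.4%) in ATG12-/- EVs, against 41.1% and 39.2% of all features. The median log2 change was -1.85. With library totals 83 were called lower and 9 higher, against 699 and 117 of the 905 features. In the following sequences capitals mark the ACA near the 3′ end, which stands 3 bases before the end in 75.2% of the 149 H/ACA box snoRNAs of GENCODE 29 and in 1.39% of the 288 C/D box snoRNAs. ACA63 (SNORA77, chr1:203729581-203729705, plus strand) was the H/ACA box RNA most enriched in the EVs, and ACA61 (SNORA61, chr1:28579764-28579893) and ACA16 (SNORA16A, chr1:28580920-28581054) both lie on the minus strand within SNHG12 and went opposite ways.
ACA63: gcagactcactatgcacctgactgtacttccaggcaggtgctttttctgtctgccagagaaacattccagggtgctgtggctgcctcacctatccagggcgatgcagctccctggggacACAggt
ACA61: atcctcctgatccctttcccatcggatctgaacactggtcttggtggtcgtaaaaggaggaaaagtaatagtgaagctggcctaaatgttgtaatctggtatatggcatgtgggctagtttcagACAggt
ACA16: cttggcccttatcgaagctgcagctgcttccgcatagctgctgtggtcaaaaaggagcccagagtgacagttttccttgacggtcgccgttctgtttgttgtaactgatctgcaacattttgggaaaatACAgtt

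ACA63, within ATP2B4, had 1934, 1955 and 1837 normalised reads in ATG12-/- EVs, against 16.1, 12.4 and 13.3 in ATG12-/- cells (log2 change 7.01, SE 0.18, adjusted p = 1.22e-18, and 4.96 with library totals). It was the largest rise of any snoRNA tested. ACA61 had 4084, 3620 and 3881 in ATG12-/- EVs, against 461, 344 and 452 in ATG12-/- cells (log2 change 3.21, SE 0.19, and 1.11 with library totals). ACA16, of the same host gene, had 60.7, 43.8 and 49.0 in ATG12-/- EVs, against 236, 169 and 222 in ATG12-/- cells (log2 change -2.01, SE 0.29, adjusted p = 1.48e-06). ACA44 (-2.65) and the C/D box snoRNA HBII-420 (-1.90), also in SNHG12, were called lower.

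The same division ran through other hosts. In TAF1D, ACA40 was called higher (log2 change 0.86, but -1.24 with library totals) and ACA1, ACA8, ACA18, ACA25 and ACA32 were called lower, from -3.32 to -0.51. In EIF4A1, U67 was higher at 4117, 3657 and 3586 normalised reads in ATG12-/- EVs, against 876, 701 and 833 in ATG12-/- cells (log2 change 2.24, SE 0.20, but 0.14 and no longer called with library totals, adjusted p = 0.451), while ACA48 (-1.15) and mgU6-77 (-3.63) were lower. Of the 4 snoRNAs tested in EIF4A2, 3 were called lower. Among H/ACA box snoRNAs, SNORA38B (4.73), U99 (4.48) and U70B (3.73) were the next largest rises after ACA63. They stayed higher with library totals at 2.64, 2.39 and 1.66. ACA21, the most abundant H/ACA box snoRNA, had 21666, 21249 and 21505 in ATG12-/- EVs, against 6229, 4697 and 6068 in ATG12-/- cells (log2 change 1.93, but -0.17 with library totals). Length did not separate these RNAs: the 20 called higher had a median length of 134 bases and the 68 called lower 133.

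Among the 24 scaRNAs, 8 were called higher and 9 lower, with a median log2 change of -0.36. These shares (33.3% and 37.5%) were near the 39.2% and 41.1% of all features. With library totals 2 were called higher and 21 lower, against 117 and 699 of the 905 features. U91 (SCARNA17) had 97.9, 76.9 and 81.1 normalised reads in ATG12-/- EVs, against 10.9, 10.0 and 8.39 in ATG12-/- cells (log2 change 3.00, SE 0.23, and 0.99 with library totals). U89 (-1.57), U90 (-1.71) and ACA45 (-1.15) were called lower. U87 and U88 lie within ATG16L1, the gene of the partner of the ATG12-ATG5 conjugate: U88 was called lower (log2 change -1.19), and U87 had 17.9, 14.6 and 22.6 in ATG12-/- EVs, against 25.1, 26.7 and 18.9 in ATG12-/- cells, with overlapping groups and no call (-0.35, SE 0.24, adjusted p = 0.191). The mgU2-25/61 and HBII-382 entries both lie on SCARNA2 and were called higher at 1.44 and 1.55, but were lower with library totals at -0.66 and -0.55.

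U1 pairs with 5′ splice sites as part of the spliceosome. It led the reads of ATG12-/- EVs once copies are counted once, and its RNU1-1 sequence (GENCODE 29, chr1:16514122-16514285, minus strand) is shown with the stretch that pairs with the splice site in capitals.
U1: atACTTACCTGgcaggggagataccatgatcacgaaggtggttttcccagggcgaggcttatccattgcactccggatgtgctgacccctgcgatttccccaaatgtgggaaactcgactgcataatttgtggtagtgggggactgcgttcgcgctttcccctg

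U1 had 288788, 328269 and 384433 normalised reads in ATG12-/- EVs, against 11742, 10467 and 10879 in ATG12-/- cells (log2 change 4.91, SE 0.16, adjusted p = 2.36e-17, and 2.81 with library totals). U6, which forms part of the spliceosome's catalytic core, was higher at 33222, 30192 and 34893 in ATG12-/- EVs, against 6069, 6382 and 5635 in ATG12-/- cells (log2 change 2.44, SE 0.18, but 0.34 and no longer called with library totals, adjusted p = 0.0785). U4, which holds U6 inactive until splicing starts, went the other way, with 265, 255 and 313 in ATG12-/- EVs, against 526, 537 and 506 in ATG12-/- cells (log2 change -0.92, SE 0.13, adjusted p = 1.71e-06). U2 (1.44) and U5 (0.56) were called higher with the deposited scaling and lower with library totals (-0.66 and -1.55). U7, which directs 3′ end formation of histone mRNA, was lower at 106, 87.5 and 115 in ATG12-/- EVs, against 340, 340 and 306 in ATG12-/- cells (log2 change -1.67, SE 0.18).

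The telomerase RNA, the template for telomere synthesis, was among the most enriched RNAs. It had 1860, 1940 and 2010 normalised reads in ATG12-/- EVs, against 32.8, 40.1 and 44.1 in ATG12-/- cells (log2 change 5.61, SE 0.20, adjusted p = 8.86e-17, and 3.53 with library totals). Of 11 RNAs listed as staying in the nucleus of intact cells (U2, U4, U5, U6, U7, U85 and U87 to U91), 4 were called higher (36.4%) and 5 lower (45.5%), near the 39.2% and 41.1% of all features. With library totals 1 was called higher and 9 lower, against 117 and 699 of the 905 features. Their summed level was 49274 to 57973 normalised reads in ATG12-/- EVs, against 14000 to 15948 in ATG12-/- cells, most of it U6 and U2. As a share of all reads the order was the other way round, with 1.34% to 1.45% in ATG12-/- EVs, against 1.63% to 1.82% in ATG12-/- cells. U1, also a spliceosomal RNA, was not on this list. It alone took 8.94% in ATG12-/- EVs and 1.27% in ATG12-/- cells, so this order of shares holds for the listed RNAs only. The part of nuclear RNA set free by dying cells in these results was not tested.

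Y RNAs bind the protein Ro60 and are common in EVs of many cells. RNY5 had 16485, 18221 and 18468 normalised reads in ATG12-/- EVs, against 5231, 6631 and 4431 in ATG12-/- cells (log2 change 1.72, SE 0.19, but -0.38 with library totals). RNY4 was called higher too (1.29, but -0.82 with library totals). RNY3, with 13378, 13430 and 13559 in ATG12-/- EVs, against 16277, 15772 and 16496 in ATG12-/- cells, did not overlap between the groups but missed the threshold (-0.27, adjusted p = 0.103), and RNY1 missed it at 0.25 (adjusted p = 0.146). RNY1, RNY3 and RNY4 were called lower with library totals. Vault RNAs are part of the vault particle, and VTRNA1-1 binds the autophagy receptor p62. VTRNA1-1 had 336, 361 and 368 in ATG12-/- EVs, against 390, 291 and 308 in ATG12-/- cells, with overlapping groups (log2 change 0.12, SE 0.18, adjusted p = 0.563). VTRNA1-2 was called higher (0.90, but -1.19 with library totals) and VTRNA1-3 lower (-0.54), a call lost without ATG12-/- EV library 1 (-0.39), ATG12-/- cell library 2 (-0.41) or ATG12-/- cell library 3 (-0.48).

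Of the 1425 microRNA entries 130 were tested, of which 36 were called higher and 41 lower in ATG12-/- EVs, with a median log2 change of -0.26. That is 27.7% higher and 31.5% lower, against 39.2% and 41.1% of all features. With library totals 12 were called higher and 106 lower, against 117 and 699 of the 905 features. Mature microRNAs act by pairing of their seed, bases 2 to 8, with target mRNAs, so the leading ones are printed with the seed in capitals, grouped by seed (RefSeq, GRCh38.p14, for 107 of the 130 entries).
let-7a-5p: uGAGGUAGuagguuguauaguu
let-7f-5p: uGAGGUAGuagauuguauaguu
let-7e-5p: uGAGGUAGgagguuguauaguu
let-7b-5p: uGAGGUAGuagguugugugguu
miR-92a-3p: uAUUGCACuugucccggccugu
miR-25-3p: cAUUGCACuugucucggucuga
miR-17-5p: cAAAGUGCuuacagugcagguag
miR-93-5p: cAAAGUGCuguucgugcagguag
miR-196a-5p: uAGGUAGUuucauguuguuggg
miR-6724-5p: cUGGGCCCgcggcgggcgugggg

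The let-7 family, which restrains growth and pluripotency genes, was lower as a group: 5 of the 6 members tested were called lower (83.3%, against 41.1% of all features). The last, let-7b-5p, was at -0.43 (adjusted p = 0.13, and 0.0481 with edgeR). Let-7a-5p had 1332, 1094 and 1062 normalised reads in ATG12-/- EVs, against 3167, 3015 and 3187 in ATG12-/- cells (log2 change -1.43, SE 0.15, adjusted p = 1.36e-08). Let-7e-5p had 60.7, 45.1 and 26.4 in ATG12-/- EVs, against 203, 192 and 189 in ATG12-/- cells (log2 change -2.19, SE 0.24). Reads of let-7 members that differ in few bases can be hard to assign, and how this was done is not given in the sources used here.

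miR-92a-3p and miR-25-3p share a seed and were both called higher with the deposited scaling, but lower with library totals (-0.69 and -0.93). miR-92a-3p had 4083, 4095 and 4275 normalised reads in ATG12-/- EVs, against 1438, 1643 and 1613 in ATG12-/- cells (log2 change 1.41, SE 0.15, adjusted p = 1.00e-08). Of the 13 tested entries from the miR-17-92 cluster and its paralogs, 3 were called higher (23.1%) and 6 lower (46.2%), against 39.2% and 41.1% of all features. With library totals none was called higher and 13 lower, against 117 and 699 of the 905 features. miR-17-5p had 35.9, 38.5 and 32.1 in ATG12-/- EVs, against 70.8, 107 and 93.7 in ATG12-/- cells (log2 change -1.31), miR-19a-3p was at -2.45 and miR-20a-5p at -1.11, all called lower. The call for miR-20a-5p, from means of 3.54 in ATG12-/- EVs and 8.12 in ATG12-/- cells, was lost without ATG12-/- EV library 2 (-0.69) and without ATG12-/- cell library 1 or 2 (-1.04 each). miR-93-5p, with the seed of miR-17-5p, was called higher at 0.44, but was at -1.64 with library totals. The HOX-cluster microRNAs miR-196a-5p (171, 231 and 260 in ATG12-/- EVs, against 862, 898 and 893 in ATG12-/- cells) and miR-196b-5p were lower at -2.02 and -2.22, and miR-10a-5p, with 66.2, 51.7 and 49.0 in ATG12-/- EVs, against 54.0, 63.9 and 56.6 in ATG12-/- cells, was not called. miR-210-3p, known for its induction under low oxygen, had 37.2, 23.9 and 26.4 in ATG12-/- EVs, against 0.643, 4.77 and 4.90 in ATG12-/- cells (log2 change 2.95, SE 0.46). Its ATG12-/- cell values all lay under the minimum of 10 for testing, so the size of this change is a description. miR-21-5p (-1.19) and miR-877-5p (-0.88) were called lower, miR-221-3p was called higher (0.85, but -0.79 with library totals), and miR-222-3p (0.61) and miR-4485-3p (0.49) did not pass the test. miR-21-5p lost its call without ATG12-/- EV library 2 (-1.11) or cell library 2 (-0.89), miR-221-3p without EV library 1 (0.70) or cell library 1 (0.71), and miR-222-3p gained one without EV library 3 (0.92) or cell library 1 (0.79) or 2 (0.81). These last 3 microRNAs had means of at most 19.03 normalised reads in the ATG12-/- libraries.

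Some microRNA entries sit where other abundant RNAs are made. miR-6724-5p, whose annotated copies lie on chromosome 21 beside the 45S ribosomal RNA genes, had 197949, 219414 and 267734 normalised reads in ATG12-/- EVs, against 8031, 8161 and 9476 in ATG12-/- cells (log2 change 4.73, SE 0.18, adjusted p = 3.44e-16, and 2.63 with library totals). It took 6.11% ± 0.545 of the reads in ATG12-/- EVs and 0.989% ± 0.0989 in ATG12-/- cells (SD, n = 3 each), while all other microRNA entries together took 0.391% ± 0.00489 in ATG12-/- EVs and 1.85% ± 0.0271 in ATG12-/- cells. The microRNA class as a whole was therefore larger in the EVs with this entry and smaller without it, and its reads cannot be told apart here from pieces of ribosomal RNA precursor. Of the 10 entries that overlap a snoRNA or scaRNA gene, 6 were called lower and 3 higher, against 41.1% and 39.2% of all features. With library totals all 10 were called lower, as were 699 of the 905 features. miR-3607-5p, on SNORD138, had 22.1, 17.2 and 16.97 in ATG12-/- EVs, against 1478, 1508 and 1461 in ATG12-/- cells (log2 change -6.24, SE 0.19), a fall like those of C/D box snoRNAs. The 2 arms of miR-3653, on SNORD125, went opposite ways, with log2 changes of -5.02 for the 5p entry and 1.09 for the 3p entry (-0.93 with library totals).

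microRNAs known from blood and liver were measured as signs of RNA from serum. Of the 8 on the list 7 are in the table, and their summed level was 247 to 330 normalised reads in ATG12-/- EVs, against 1.91 to 2.80 in ATG12-/- cells. The 3 that were tested reached the minimum for testing only through EV libraries, so their calls are not given as a result and their values are a description. miR-486-5p, of red cells, had 193, 151 and 153 in ATG12-/- EVs, against 1.29, 1.91 and 1.40 in ATG12-/- cells (log2 change 6.04, SE 0.34). miR-150-5p, of lymphocytes, had 186 reads over the 3 ATG12-/- EV libraries and 1 read over the 3 ATG12-/- cell libraries, a ratio of normalised levels of 470 (95% exact interval 83.4 to 18670, counting error only). miR-223-3p, of myeloid cells, had 28 reads in ATG12-/- EVs and 0 in ATG12-/- cells, at least 23.6-fold higher against a floor of 3 reads over the cell group. miR-122-5p, of liver, had 10 reads in ATG12-/- EVs and 1 in ATG12-/- cells. Cultures had been grown with fetal bovine serum before starvation, and the part of serum RNA in the EV results was not tested.

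The largest log2 changes of the whole table belonged to 6 entries that cannot be located. Both arms of miR-937, miR-4664 and miR-6845, within SCRIB, FAM83H and NRBP2 on chromosome 8, held nearly the same values in every ATG12-/- EV library: miR-6845-3p had 181, 309 and 451 normalised reads, and no reads in ATG12-/- cells. Against the floor of 3 reads over the cell group, miR-6845-3p was at least 508-fold higher. miR-937-3p (604 reads in ATG12-/- EVs and 1 in ATG12-/- cells) had a ratio of 1527 (95% exact interval 273 to 60406). Whether the reads belong to 1 of the 3 genes or to none cannot be told from the counts.

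For tRNA, 267 of the 483 genes tested were called higher (55.3%) and 116 lower (24.0%), against 39.2% and 41.1% of all features. The amino acids differed widely and many genes share their reads. With each mature tRNA counted once, 155 of 319 were called higher and 101 lower, against 236 and 354 of 731 RNAs of all classes. With library totals 83 of the 483 genes were higher and 334 lower, against 117 and 699 of the 905 features. Glutamate tRNA led: 24 of 26 genes were called higher (92.3%), with a median log2 change of 4.10, and 20 were higher with library totals. tRNA-Glu-CTC-1-2 had 175664, 182100 and 188094 normalised reads in ATG12-/- EVs, against 8978, 7193 and 6814 in ATG12-/- cells (log2 change 4.58, SE 0.18, adjusted p = 2.43e-16). tRNA-Glu-TTC-4-2 had 165369, 171722 and 176972 in ATG12-/- EVs, against 6263, 5190 and 4454 in ATG12-/- cells (log2 change 5.03, SE 0.21). Not every glutamate gene followed: tRNA-Glu-TTC-5-1 was lower at -3.66, from a mean of 143 in ATG12-/- EVs against 1787 in ATG12-/- cells.

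**Figure D4:**
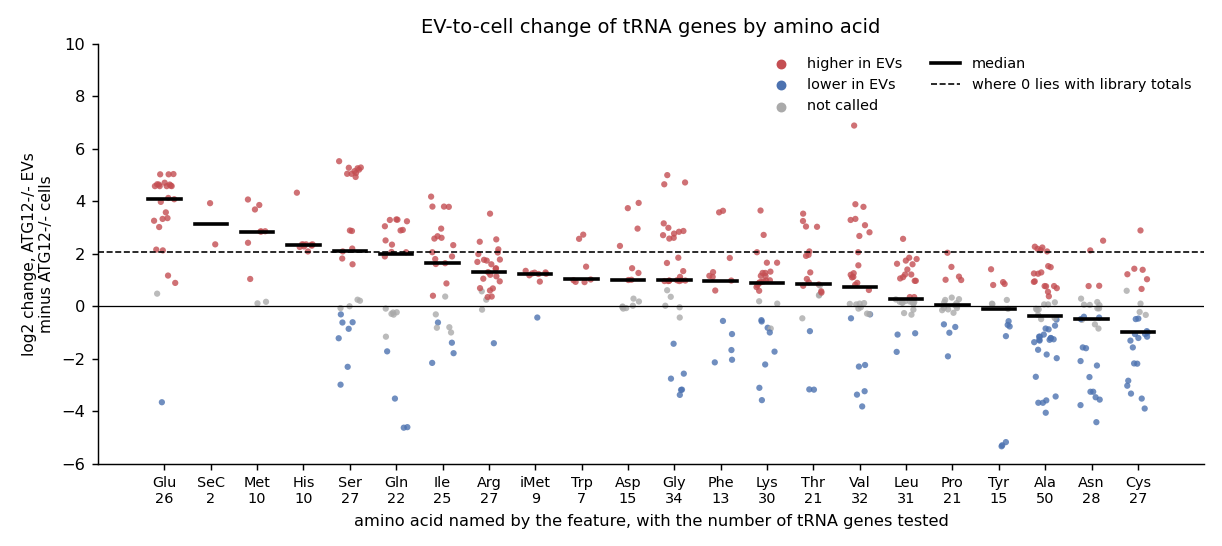
Log2 change of each tested tRNA gene, ATG12-/- EVs minus ATG12-/- cells, by the amino acid in its name, with the number of genes tested under each. Red points were called higher, blue points lower and grey points not called, thick lines are medians, and the dashed line marks where no change would lie with library totals. Glutamate genes had a median of 4.10 and cysteine genes of -1.0.

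Selenocysteine (median 3.15, 2 genes), elongator methionine (2.85) and histidine tRNA (2.35) followed, and all 10 histidine genes tested were called higher, against 39.2% of all features. With library totals the medians were 1.12, 0.76 and 0.25, and 1 of the 10 histidine genes was called higher. Serine genes ranged from -2.99 to 5.53. tRNA-Ser-AGA-1-1 had 5795, 5883 and 5796 normalised reads in ATG12-/- EVs, against 118, 129 and 129 in ATG12-/- cells (log2 change 5.53, SE 0.17, and 3.43 with library totals). tRNA-Ser-AGA-2-6 and tRNA-Ser-AGA-4-1 were close to it at 5.29 and 5.08. At the other end, asparagine genes had a median of -0.51, with 4 of 28 called higher (14.3%) and 14 lower (50.0%). Cysteine genes had a median of -1.0, with 6 of 27 called higher (22.2%) and 17 lower (63.0%). Over all features 39.2% were called higher and 41.1% lower. Initiator methionine tRNA was at a median of 1.24, but at -0.85 with library totals. The 6 tested tRNA genes of mitochondrial type in the table (listed with the prefix nmt) were at a median of -1.55, with 4 called lower (66.7%, against 41.1% of all features). tRNA genes that the table names by chromosome, not by a number, were at a median of 0.05 over 41 tested, against 0.82 over the 442 numbered ones.

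Genes listed as copies of 1 mature tRNA did not always hold the same reads. Of 58 mature tRNAs with at least 2 tested genes, the log2 changes of the copies lay within 0.5 of each other in 32 and over 2 apart in 6. The widest was tRNA-Val-AAC-1: its gene 1-1 had 6374, 6715 and 6982 normalised reads in ATG12-/- EVs, against 48.3, 53.4 and 66.4 in ATG12-/- cells (log2 change 6.89, SE 0.15, adjusted p = 1.32e-19). Its copies 1-2 to 1-5 had means of 59.1 to 83.7 in ATG12-/- EVs, against 25.5 to 40.5 in ATG12-/- cells, and log2 changes of 0.62 to 1.56, but of -1.44 to -0.49 with library totals. The rise seen in entry 1-1 was therefore not shared by the entries of its copies. Full-length tRNA and its fragments cannot be told apart in these counts, and tRNA sequences were not used here.

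The EV-to-cell change in ATG12-/- cultures was next set against that in wild-type cultures, which share no library with it. This asks where the ATG12-/- clone and wild-type differ in the RNAs found outside the cell. Loss of ATG12 cannot be told apart here from other traits of the clone. Most RNAs were placed alike. Across the 905 features, which share annotation, length and base composition, Pearson's r between the log2 changes was 0.95, and of 650 features called in both genotypes 639 had the same direction. The difference between the changes was called for 239 features (26.4%), 130 higher (14.4%) and 109 lower (12.0%) in ATG12-/-. The numbers of higher and lower calls depended on the scaling: library totals gave 20 higher and 268 lower, and TMM 50 higher and 186 lower.

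The largest differences downward were those of H/ACA box snoRNAs. Of the 98 tested, 35 had a lower change in ATG12-/- than in wild-type and 10 a higher one, with 33 to 60 lower and 2 to 9 higher under the other 3 scalings. Over all 905 features 109 were lower (12.0%) and 130 higher (14.4%). The other 3 scalings gave 86 to 268 lower and 20 to 110 higher over all features. The log2 change of ACA28 (SNORA28, within EIF5) was -2.80 in ATG12-/- and 1.24 in wild-type, a difference of -4.04 (adjusted p = 5.31e-10), from means of 36.7 in ATG12-/- EVs and 580 in wild-type EVs, and of 262 in ATG12-/- cells and 241 in wild-type cells. The cells held nearly equal levels, and the difference lay in the EVs. U72 differed by -3.55, ACA16 by -3.19 and ACA62 by -2.93, and each of these 4 was lower in ATG12-/- EVs than in ATG12-/- cells and higher in wild-type EVs than in wild-type cells. ACA62 (SNORA50C, within SNHG25) had means of 206 normalised reads in ATG12-/- EVs and 1942 in wild-type EVs, and of 537 in ATG12-/- cells and 656 in wild-type cells. ACA5c (-3.57) and ACA50 (-2.82) differed too, but were lower in the EVs of both genotypes. These 6 differences were called under all 4 scalings. ACA28 (chr14:103337849-103337974) and ACA62 (chr17:64146339-64146471), both on the plus strand, are printed with the terminal ACA in capitals because their direction differed between the genotypes.
ACA28: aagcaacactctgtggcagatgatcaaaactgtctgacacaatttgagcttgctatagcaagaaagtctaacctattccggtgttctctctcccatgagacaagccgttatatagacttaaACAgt
ACA62: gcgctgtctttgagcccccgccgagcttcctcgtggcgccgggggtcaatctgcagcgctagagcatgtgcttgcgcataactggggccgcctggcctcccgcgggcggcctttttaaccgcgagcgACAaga

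**Figure D5:**
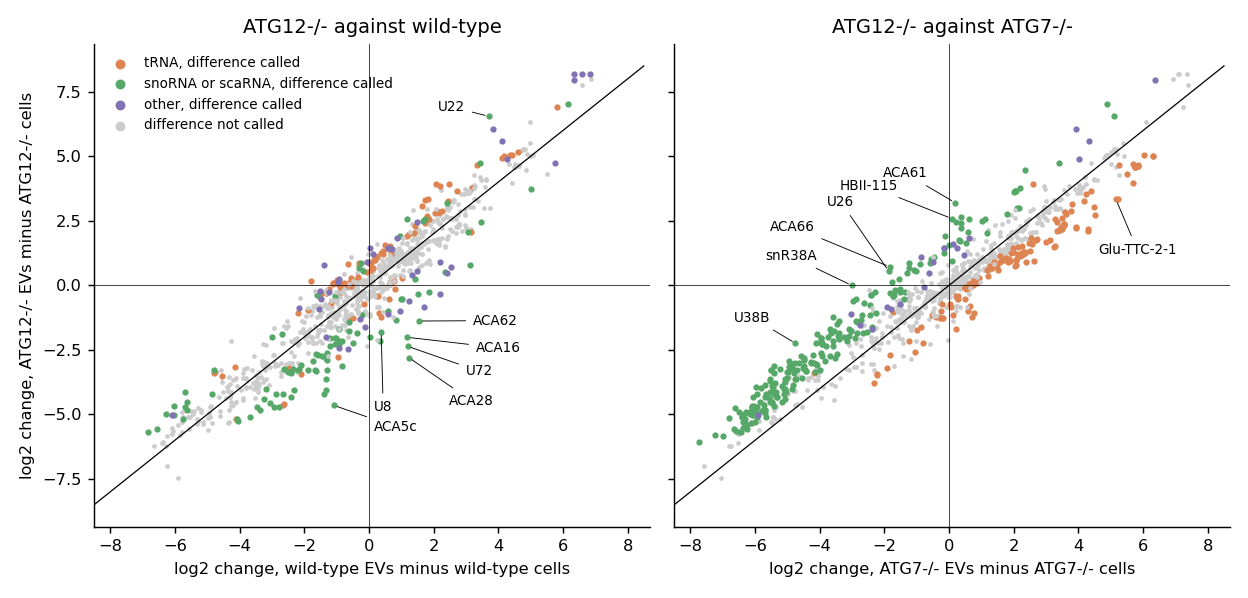
Each point is 1 tested feature, with its log2 EV-to-cell change in ATG12-/- cultures on the vertical axis and in wild-type (left) or ATG7-/- cultures (right) on the horizontal axis. Coloured points were called in the test of the difference, and the diagonal marks equal changes. ACA28, U72, ACA16 and ACA62 lie below 0 in ATG12-/- and above 0 in wild-type, and snoRNAs lie above the diagonal against ATG7-/-.

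Other RNAs of the panel differed in the same direction. U8 had a log2 change of -1.80 in ATG12-/- and 0.38 in wild-type, a difference of -2.19 (adjusted p = 2.55e-06). U19, within SNHG4, had -0.25 in ATG12-/- and 1.86 in wild-type (difference -2.11). U87, within ATG16L1, had -0.35 in ATG12-/- and 1.52 in wild-type (difference -1.87, adjusted p = 0.000564). miR-4485-3p, whose gene lies within MTRNR2L8, had 0.49 in ATG12-/- and 2.42 in wild-type (difference -1.93, adjusted p = 0.00337). These differences were called under all 4 scalings.

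The largest difference upward was that of U22. Its mean was 9612 normalised reads in ATG12-/- EVs and 3040 in wild-type EVs, and 106 in ATG12-/- cells and 234 in wild-type cells, so the log2 changes were 6.55 in ATG12-/- and 3.70 in wild-type and differed by 2.85 (SE 0.34, adjusted p = 6.78e-06, and 2.27 with library totals). miR-486-5p differed by 2.19, with means of 166 in ATG12-/- EVs and 54.2 in wild-type EVs, and 1.53 in ATG12-/- cells and 3.16 in wild-type cells. It reached the minimum for testing only through EV libraries and rests on few cell reads, so this difference is a description. tRNA-SeC-TCA-1-1, the tRNA for selenocysteine, differed by 1.84 (adjusted p = 0.00904, but 1.26 with library totals, adjusted p = 0.0493) and the telomerase RNA by 1.49 (adjusted p = 0.000719, but 0.91 with library totals, adjusted p = 0.0096). RNY1 (1.19, but 0.60 with library totals, adjusted p = 0.0391) and VTRNA1-1 (1.06) also had higher changes in ATG12-/-, but the call for VTRNA1-1 was lost with library totals (0.47, adjusted p = 0.177). The other features named by rank, tRNA-Met-CAT-chr6-167 (1.68), miR-937-3p (1.63) and miR-6845-3p (1.60), rest on cell libraries with few reads and lost their call with library totals (adjusted p = 0.0851, 0.138 and 0.0746) and on leaving out several single libraries, with values of 1.13 to 1.60 then.

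ATG7 activates ATG12 for its conjugation, so the EV-to-cell change of ATG12-/- cultures was also set against that of ATG7-/- cultures, with which it shares no library. The difference was called for 387 features (42.8%), 245 higher (27.1%) and 142 lower (15.7%) in ATG12-/-. TMM from microRNAs alone gave 171 higher and 204 lower. Here snoRNAs and tRNAs parted: 119 of 150 C/D box snoRNAs, 83 of 98 H/ACA box snoRNAs and 19 of 24 scaRNAs had a higher change in ATG12-/- and none a lower one, whereas 142 of 483 tRNA genes had a lower change and 4 a higher one. With TMM from microRNAs the counts were 87, 61 and 14 higher for the 3 snoRNA classes, again with none lower, and 198 lower with none higher for tRNA. The median log2 change of C/D box snoRNAs was -4.12 in ATG12-/- and -5.36 in ATG7-/-, and that of glutamate tRNA 4.10 in ATG12-/- and 5.16 in ATG7-/-. In shares of reads, C/D box snoRNAs averaged 21.0% in ATG12-/- EVs and 7.12% in ATG7-/- EVs, against 22.2% in wild-type EVs. Most of this was U3 over its 5 copies, at 19.8% in ATG12-/- EVs, 6.56% in ATG7-/- EVs and 20.1% in wild-type EVs. The other C/D box snoRNAs took 1.20% in ATG12-/- EVs, 0.559% in ATG7-/- EVs and 2.09% in wild-type EVs. Glutamate tRNA averaged 45.01% in ATG12-/- EVs and 61.6% in ATG7-/- EVs, against 35.5% in wild-type EVs.

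ACA61 differed most. Its means were 3861 normalised reads in ATG12-/- EVs and 450 in ATG7-/- EVs, and 419 in ATG12-/- cells and 403 in ATG7-/- cells, a log2 difference of 3.03 (adjusted p = 2.43e-07). The cells were level with each other, as they were for ACA28 against wild-type. U26 had a log2 change of 0.56 in ATG12-/- and -1.87 in ATG7-/- (difference 2.43, adjusted p = 1.42e-06). snR38A (3.00), the scaRNA ACA66 (2.56; its own change in ATG12-/- was 0.72, but -1.34 with library totals), HBII-115 (2.51) and U38B (2.50) followed, all 6 called under the 4 scalings. The largest differences downward were in tRNA genes: tRNA-Ala-AGC-17-1 (-2.20), tRNA-Ala-AGC-16-1 (-2.11), which holds nearly the same reads, tRNA-Ala-AGC-chr6-96 (-1.92), tRNA-Glu-TTC-2-1 (-1.83), tRNA-Trp-CCA-5-1 (-1.79) and tRNA-Glu-TTC-7-1 (-1.71). tRNA-Glu-TTC-2-1 had means of 9785 in ATG12-/- EVs and 20291 in ATG7-/- EVs, and of 1044 in ATG12-/- cells and 595 in ATG7-/- cells. ACA28, U72, ACA16 and ACA62, which parted ATG12-/- from wild-type, had log2 changes of -3.53, -3.60, -3.24 and -2.87 in ATG7-/- cultures, also below 0. Both differences use the same ATG12-/- libraries, so they are not independent of each other.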

How the data were processed

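Small RNA libraries of 18 HEK293T samples were used, 3 from each of 6 groups. RNA was extracted as total RNA and made into libraries with 12 PCR cycles and size selection, then sequenced as single reads of 50 bases, per the labels' protocols. The tools cutadapt 2.3, Bowtie2 2.3, bedtools and DESeq2 and the build GRCh38 are named in the submitters' processing notes, and their settings are not given in the sources used here. The deposited values are a signal per feature that, judged from the values, the authors divided by 1 size factor per library: every value was a whole number of reads (tolerance 1e-06) over that factor, so reads and depth could be recovered. Library preparation without molecular identifiers means that intervals cover counting error only.

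The values, as log2(normalised reads + 1), were fitted with limma 3.58.1 in R 4.3.3, with the spread allowed to follow the mean level, over all 18 libraries with 1 coefficient per group. A feature was tested if it reached 10 in at least 3 libraries, and p-values were adjusted by Benjamini and Hochberg over all 905 tested, with calls under 0.05. limma was used since the values were scaled. Adjusted p-values in the text are from this test unless another tool is named. The procedure was tested on simulated data. Shares were compared by exact permutation tests in SciPy 1.17.1. Other scalings (library totals, TMM, TMM from microRNAs), pseudocounts, filters, edgeR 4.0.16, DESeq2 1.42.0 on the recovered reads, a replicate block and leaving out each library were alternatives. Features were annotated by name with GENCODE 29 and RefSeq. Named features were the largest changes in each direction (12 for EVs against cells, 6 for each difference), the 3 most abundant of each class and a panel by role, with copies counted once, and others were named in describing a host gene or family. Members and lists were chosen with earlier results of these data known.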

Additional observations from a re-analysis of the deposited data

Results flagged for a closer look

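The EV-to-cell change differed between genotypes by a test of the difference itself. Against wild-type cultures it differed for 239 features, and against ATG7-/- cultures for 387. The largest differences, on the log2 scale, follow, and what underlies them was not tested.

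In ATG12-/- minus wild-type, the changes of U22 (2.85), miR-486-5p (2.19), tRNA-SeC-TCA-1-1 (1.84), tRNA-Met-CAT-chr6-167 (1.68), miR-937-3p (1.63) and miR-6845-3p (1.60) were higher. Of these, miR-486-5p, tRNA-Met-CAT-chr6-167, miR-937-3p and miR-6845-3p rest on cell libraries with few reads. The calls for the last 3 were lost with library totals. Those for miR-937-3p and miR-6845-3p, which hold nearly the same reads in ATG12-/- EVs, were also lost with edgeR and DESeq2. Those of the H/ACA box snoRNAs ACA28 (-4.04), ACA5c (-3.57), U72 (-3.55), ACA16 (-3.19), ACA62 (-2.93) and ACA50 (-2.82) were lower.

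In ATG12-/- minus ATG7-/-, the changes of ACA61 (3.03), snR38A (3.00), ACA66 (2.56), HBII-115 (2.51), U38B (2.50) and U26 (2.43) were higher. Those of tRNA-Ala-AGC-17-1 (-2.20), tRNA-Ala-AGC-16-1 (-2.11), tRNA-Ala-AGC-chr6-96 (-1.92), tRNA-Glu-TTC-2-1 (-1.83), tRNA-Trp-CCA-5-1 (-1.79) and tRNA-Glu-TTC-7-1 (-1.71) were lower. With 3 libraries a group, no test for single outlying libraries was made.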

How the results depend on the processing

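The count of features called between ATG12-/- EVs and ATG12-/- cells (727) lay between 591 and 883 over all settings other than leaving out a library, and between 699 and 711 when 1 library was left out. The difference from wild-type (239) ranged from 178 to 279 with 1 library left out, and that from ATG7-/- (387) from 337 to 396. With the replicate block the counts were 729, 224 and 378, and 722, 217 and 371 features were called with and without it. The same-number libraries of ATG12-/- EVs and cells did not deviate together (r -0.00892, 0.00787 and -0.0713). Whether they came from the same culture cannot be told from these values.

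Library totals turned the sign for ACA21 (-0.17), ACA10 (-0.38), RNY5 (-0.38), RNY1 (-1.85), RNY4 (-0.82), miR-92a-3p (-0.69), miR-25-3p (-0.93), miR-221-3p (-0.79), miR-222-3p (-1.34), miR-4485-3p (-1.56), mgU2-25/61 (-0.66), HBII-382 (-0.55), U2 (-0.66), U5 (-1.55), VTRNA1-1 (-1.98) and VTRNA1-2 (-1.19). This follows from the sums of normalised reads, which were larger in the EV libraries. With 1 copy per RNA, the share differences, ATG12-/- EVs minus ATG12-/- cells in percentage points, were -48.97 for C/D box snoRNAs, 18.29 for snRNAs, 10.24 for microRNAs and -2.196 for Y RNAs. Without microRNA entries in ribosomal DNA, the microRNA difference turned to -1.448 and that of tRNA was 30.62. The balance of higher and lower calls against wild-type is limited by the choice of scaling, and RNAs with few or no cell reads by depth.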
